A study of Mus musculus with 4 samples.

Results

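The synaptotagmin family was followed here through RNA bound to the ribosomal protein RPS2 and through total RNA of cultured neurons. The 10 genes described are Syt1, Syt2, Syt3, Syt4, Syt5, Syt7, Syt11, Syt13, Syt16 and Syt17. They were picked by gene symbol, after matching Ensembl identifiers to GENCODE M21, from 31053 genes in the count tables. No measured value entered the rule, though the members were chosen with earlier results of these data known. All 10 were tested. The tables list 7 further synaptotagmin genes, which are described after them.

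The libraries were made from primary cortical neurons of WT mice, which the study cultured from cortices of C57BL/6J embryos. Enhanced crosslinking and immunoprecipitation (eCLIP) fixes RNA to the protein it touches, recovers that protein with an antibody and sequences the attached RNA. There were 2 RPS2 IP libraries and 2 libraries of total RNA, taken from the samples before the pulldown, so libraries with the same replicate number were read as a pair. Counts per gene in the IP relative to total RNA served the study as an eCLIP-derived measure of translational efficiency. The treatment label was rRNA depletion for both IP libraries and no treatment for both total RNA libraries. The methods place the depletion after library preparation without naming the libraries. If the labels hold, an effect of that step cannot be told apart from the IP. Nothing in the labels states that replicates 1 and 2 came from separate cultures.

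Synaptotagmins are membrane proteins of synaptic and other secretory vesicles with a pair of C2 domains, C2A and C2B. Loops at the tip of a C2 domain bind calcium through a ring of aspartates, and calcium binding lets the domain enter the membrane and act with the SNARE proteins in vesicle fusion. Syt1, Syt2 and the protein encoded by mouse Syt5 are vesicle calcium sensors for release, Syt3 and Syt7 bind calcium with higher affinity, and other members have lost some or all of the calcium-binding residues. Neurons express several members at once.

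The coding sequence shows this split directly. Each line below gives 39 coding bases, 13 codons, of the GENCODE M21 transcript of 1 member (mm10, coding strand), spanning a calcium-binding loop of C2A. They are shown because the loop separates the calcium-binding members from the others. Capitals mark the codons aligned with the third, the fourth and the fifth calcium-binding aspartate of Syt1 C2A, and GAT and GAC both encode aspartate. In Syt1 the stretch is coding bases 682 to 720.
Syt1: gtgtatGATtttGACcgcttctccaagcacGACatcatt
Syt2: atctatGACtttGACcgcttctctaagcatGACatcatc
Syt3: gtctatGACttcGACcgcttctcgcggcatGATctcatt
Syt5: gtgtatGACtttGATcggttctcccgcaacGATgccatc
Syt7: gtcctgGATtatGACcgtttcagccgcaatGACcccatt
Syt11: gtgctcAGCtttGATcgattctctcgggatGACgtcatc
Syt13: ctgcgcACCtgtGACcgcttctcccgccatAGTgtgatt
Syt16: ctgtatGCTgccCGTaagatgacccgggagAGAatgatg
Syt17: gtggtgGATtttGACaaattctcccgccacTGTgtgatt

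Syt1, Syt2, Syt3, Syt5 and Syt7 kept an aspartate codon at all marked places. Syt11 had AGC, a serine codon, at the first of them, and the aligned codon of Syt4 was AGT, also serine. Syt16 had no aspartate codon at any of them. Counted over both domains, where Syt1 has 5 sites in C2A and 5 in C2B, aspartate codons stood at 10 sites in Syt7, at 9 in Syt2, Syt3 and Syt5, at 7 in Syt4 and Syt11, at 5 in Syt17, at 4 in Syt13 and at 2 in Syt16. The encoded proteins ran from 386 residues in Syt5 to 587 in Syt3. Their identity to Syt1 over aligned residues was 78.9% for Syt2 and 58.8% for Syt5, and between 24.6% (Syt16) and 42.0% (Syt3) for the other members.

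The context of the start codon, where the small ribosomal subunit that carries RPS2 begins translation, was also read from each transcript. The lines below give 15 bases of the same transcripts, with the start codon in capitals.
Syt1: gaaccaaaaATGgtg
Syt2: tctgccaccATGaga
Syt3: gtggccactATGtct
Syt5: cccgacgccATGttc
Syt11: gattacaacATGgct
Syt13: gcaggcaccATGgtg
Syt16: gacgcgaccATGgcg
Syt17: ctccccaaaATGttg

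A purine 3 bases before the start codon together with a G right after it, the core of the Kozak context, was found in 5 of the 9 members with annotated bases before the start. The same letters stood in 42.1% of 19725 coding genes. Syt13 and Syt16 are among the members that had both letters, and Syt2 and Syt3 among those without the G. No value of the IP was tested against this context.

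The genes lie apart in the genome (mm10). Syt1 is on chromosome 10 (108497650 to 109010982, minus strand), Syt2 on chromosome 1 (134646677 to 134762593, plus strand), Syt7 on chromosome 19 (10389090 to 10453181, plus strand) and Syt11 on chromosome 3 (88744700 to 88775164, minus strand). Chromosome 7 holds 3 members, Syt5 (4539765 to 4547541, minus strand), Syt3 (44384102 to 44400187, plus strand) and Syt17 (118380717 to 118448222, minus strand). Syt13 is on chromosome 2 (92915098 to 92956058, plus strand), Syt16 on chromosome 12 (73997661 to 74273267, plus strand) and Syt4 on chromosome 18 (31437808 to 31447415, minus strand). No member shares exons with another gene on its strand. On the opposite strand Gm26658 overlaps 575 exonic bases of Syt4, Gm26859 overlaps 384 of Syt7 and Gm29587 overlaps 183 of Syt16, and the counting used strand.

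Totals were 16460545 and 9941486 counts in IP replicates 1 and 2, and 5281196 and 4899718 in total RNA. The lincRNA Gm42418 took between 15.3% and 42.6% of a library. Markers of neurons, excitatory neurons and inhibitory neurons were present in all 4 libraries. Astrocyte markers were present too, with all 5 detected. Their summed level was 1320 to 3163 CPM in the IP and 1168 to 2597 CPM in total RNA, where CPM is the count scaled to a common library size after TMM normalisation. Microglial markers summed to 6.83 to 60.1 CPM in the IP and 4.93 to 59.5 CPM in total RNA, oligodendrocyte markers to 40.6 to 46.9 CPM and 35.6 to 42.6 CPM, with Mog at or near 0, and endothelial markers to 1.08 to 2.82 CPM and 1.56 to 1.64 CPM, with Cldn5 at 0 in each library.

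Together the 10 members made up 2409 and 2234 CPM of the IP libraries and 2106 and 2205 CPM of total RNA. Syt1 alone took 27.6% to 35.6% of the members' counts in a library and Syt11 took 21.5% to 25.9%. To compare genes, CPM was divided by exonic length in kilobases. By the mean of the 4 libraries on that scale, the level was 100.1 ± 13.4 (SD, n = 4) CPM per kilobase for Syt11, 86.2 ± 12.6 for Syt1, 83.1 ± 31.6 for Syt4 and 74.7 ± 9.77 for Syt5. These 4 members stood above 97.8% to 98.5% of the genes tested on the same scale. Syt13 followed at 32.6 ± 5.07 CPM per kilobase, Syt7 at 29.2 ± 3.67 and Syt3 at 23.3 ± 3.84. Syt2 at 5.75 ± 2.19, Syt16 at 4.11 ± 0.376 and Syt17 at 1.53 ± 0.347 were the lowest.

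The order did not separate every neighbour. Syt11 stood above Syt1 in 4 of 4 libraries, as did Syt5 above Syt13, Syt7 above Syt3, Syt3 above Syt2 and Syt16 above Syt17. Syt1 and Syt4, Syt4 and Syt5, and Syt13 and Syt7 each kept their order in 2 of 4 libraries, and Syt2 stood above Syt16 in 3 of 4. Syt4 ran from 46.8 CPM per kilobase in total RNA replicate 1, below Syt5, to 118 in IP replicate 2, above Syt1 and Syt11. The order per kilobase depends on the length used, here all annotated exons of a gene, 8338 bases for Syt1 and 5205 for Syt11. In CPM without this division, Syt1 stood above Syt11 in each library. Levels over the length of single transcripts were not computed.

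**Figure D1:**
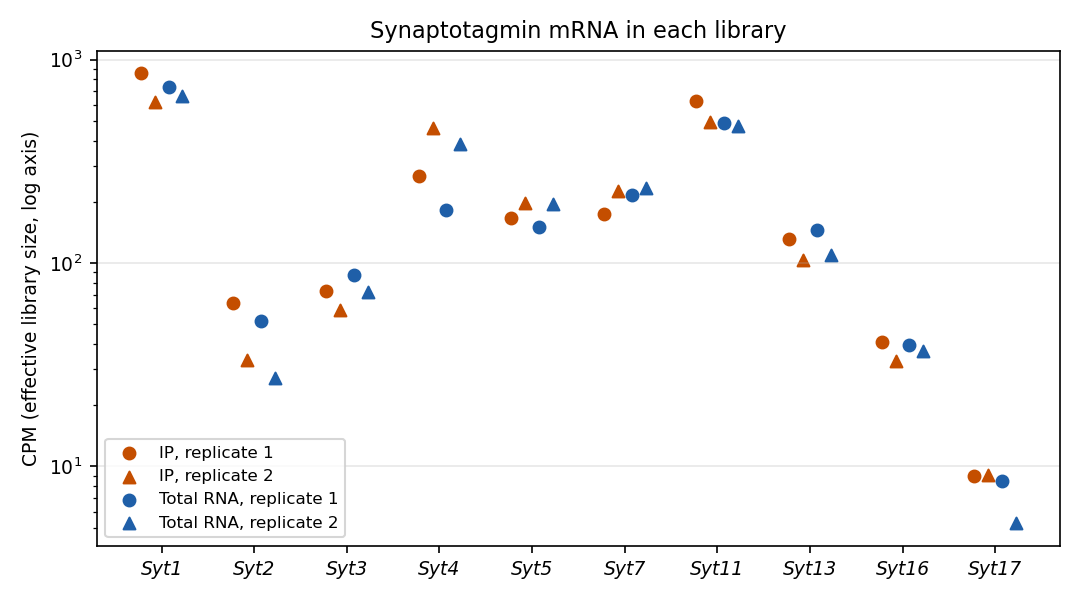
CPM of each synaptotagmin member in the 2 IP and 2 total RNA libraries, on a log axis. Syt1 and Syt11 lie highest in each library and Syt17 lowest, and for Syt4 and Syt2 the points of one replicate number sit together, apart from those of the other.

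The IP was then compared with total RNA within each replicate number. 1 of the 10 members, Syt4, was called higher in the IP (adjusted p under 0.05, edgeR quasi-likelihood test with the replicate number as a block), against 6.63% of the 12336 genes tested. 0 members were called lower, against 7.55% of all genes tested. With edgeR 4 members (Syt2, Syt3, Syt4 and Syt11) had an unadjusted p under 0.05, as did 3214 of the 12336 genes tested, and DESeq2 and limma-voom with the same block also called 1 member higher and 0 lower. The median log2 fold change was 0.071 over the members and 0.011 over all genes tested, and the median size of the change, without its sign, was 0.195 and 0.233. The sign of the ratio was the same in both pairs for 8 of 10 members and for 66.5% of all genes tested. Without the block, edgeR called 0 members and 0% of all genes tested, with 0 members and 349 genes at an unadjusted p under 0.05.

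Syt1, the main calcium sensor for fast synchronous release in forebrain neurons, was the most abundant member in CPM. It measured 858 and 616 CPM in IP replicates 1 and 2, and 735 and 665 CPM in total RNA. The IP values lay on either side of the total RNA values. The log2 fold change was 0.056 ± 0.10 (SE), with an adjusted p of 0.778 (edgeR quasi-likelihood test). The 95% interval ran from -0.14 to 0.25, and the pairs gave log2 ratios of 0.22 and -0.11.

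Syt2, the fast sensor best known from the hindbrain, spinal cord and some inhibitory neurons, was among the 3 lowest members per kilobase, though above 61.8% of the genes tested on that scale. It had 63.5 and 33.2 CPM in the IP and 51.7 and 27.1 CPM in total RNA. Replicate 1 was higher than replicate 2 in both fractions, so the groups overlapped, and within each pair the IP was higher by nearly the same amount, with log2 ratios of 0.30 and 0.29. The log2 fold change of 0.30 ± 0.13 did not pass the test (adjusted p = 0.107, edgeR quasi-likelihood test). With an offset for GC content and length it was 0.38 and passed (adjusted p = 0.0490, edgeR).

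Syt5, a sensor on synaptic and dense-core vesicles, had 167 and 198 CPM in the IP and 150 and 196 CPM in total RNA. The groups overlapped. The log2 fold change was 0.085 ± 0.10, with an adjusted p of 0.649 (edgeR quasi-likelihood test) and a 95% interval of -0.11 to 0.28.

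Syt3 and Syt7 are the high-affinity members described here. Syt3, linked to retrieval of glutamate receptors at the postsynaptic membrane, had 73.1 and 58.5 CPM in the IP and 87.7 and 71.7 CPM in total RNA. Within each pair the IP was the lower library, with log2 ratios of -0.26 and -0.29. The log2 fold change was -0.28 ± 0.11 (edgeR quasi-likelihood test, adjusted p = 0.0788), the lowest value of any member in this fit, and it did not pass. With GC content and length as an offset it was -0.10 (adjusted p = 0.684, edgeR). Syt7, which acts in asynchronous release and synaptic facilitation, had 174 and 225 CPM in the IP and 216 and 235 CPM in total RNA. Its log2 fold change was -0.18 ± 0.099 (edgeR quasi-likelihood test, adjusted p = 0.231), with ratios of -0.31 and -0.059 in the pairs, and its sign turned with the offset (0.080).

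Syt4, whose C2A has the serine codon named above and which sits on dense-core vesicles and on vesicles that carry BDNF, gave the 1 call. It measured 268 and 461 CPM in IP replicates 1 and 2 and 183 and 385 CPM in total RNA. The IP was higher than total RNA in each pair, with log2 ratios of 0.55 and 0.26, yet total RNA of replicate 2 lay above the IP of replicate 1, so the groups overlapped. The log2 fold change was 0.40 ± 0.099, a 1.32-fold higher level in the IP (95% interval of the log2 value 0.21 to 0.59; adjusted p = 0.00114, edgeR quasi-likelihood test). Of all genes tested, 14.8% had a higher log2 fold change.

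The call on Syt4 rests on the pairing. Without the block the log2 fold change was 0.36 ± 0.45, with an edgeR unadjusted p of 0.452. In that unpaired fit the sign turned when IP replicate 2 was left out (-0.098) and when total RNA replicate 1 was left out (-0.079). Leaving out IP replicate 1 gave 0.70, and leaving out total RNA replicate 2 gave 0.99. With the block, it was 0.32 with library totals as the sole scaling (adjusted p = 0.202, edgeR) and 0.14 when GC content and length were entered as an offset (adjusted p = 0.481, edgeR). Syt4 has the lowest GC content of the members, 40.7%.

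Syt11, with the same serine substitution, works in vesicle retrieval and membrane trafficking and is inactive as a calcium sensor. It had 625 and 496 CPM in the IP and 490 and 474 CPM in total RNA. Both IP libraries were above both total RNA libraries, though IP replicate 2 only by a small margin. It was 1 of 2 members, with Syt17, whose groups did not overlap, against 31.8% of all genes tested. The log2 fold change of 0.21 ± 0.099 did not pass (adjusted p = 0.151, edgeR quasi-likelihood test), with ratios of 0.35 and 0.066 in the pairs.

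Syt13, Syt16 and Syt17 carry few of the calcium-binding aspartates. Syt13 had 131 and 104 CPM in the IP and 145 and 110 CPM in total RNA, and its log2 fold change was -0.12 ± 0.10 (edgeR quasi-likelihood test, adjusted p = 0.517). Syt16 had 40.9 and 33.1 CPM in the IP and 39.4 and 36.8 CPM in total RNA, and its log2 fold change was -0.051 ± 0.13 (edgeR quasi-likelihood test, adjusted p = 0.858). For both genes the groups overlapped. Syt17 was the lowest member, at 8.96 and 9.07 CPM in the IP and 8.46 and 5.26 CPM in total RNA, from 124, 101, 38 and 32 counts. Its log2 fold change was the highest of the members and the least precise, 0.42 ± 0.27 (adjusted p = 0.339, edgeR quasi-likelihood test), and the pairs gave log2 ratios of 0.081 and 0.76.

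By calcium-binding residues, the 5 members with aspartate codons at 9 or 10 sites were centred on a log2 fold change of 0.056 (median), and 0 were called. The 5 with 7 or fewer had a median of 0.21 with Syt4 called higher. The order of the medians was not the same in both pairs: pair 1 gave 0.16 for the first class and 0.081 for the second, and pair 2 gave -0.059 and 0.066. The classes overlapped, from -0.28 (Syt3) to 0.30 (Syt2) in the first and from -0.12 (Syt13) to 0.42 (Syt17) in the second, and the difference was not tested.

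The replicate numbers differed more than the fractions did for most members. The replicate 2 minus replicate 1 difference in log2 CPM was larger than the fitted IP difference, in both the IP and total RNA, for 7 of 10 members and for 51.2% of all genes tested. Syt4 was higher in replicate 2 by 0.78 in the IP and by 1.08 in total RNA. Among all genes tested, 3.15% were higher in replicate 2 by at least 0.78, the smaller of these shifts, in both fractions. Syt2 moved the other way, with differences of -0.93 in the IP and -0.92 in total RNA. Of all genes tested, 6.19% were lower in replicate 2 by at least 0.92 in both fractions.

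The remaining members shifted less. The direction was the same in both fractions for 9 of 10 members (75.8% of all genes tested), with 6 lower and 3 (Syt4, Syt5 and Syt7) higher in replicate 2. Syt17 was the exception, with differences of 0.017 in the IP and -0.66 in total RNA. Across all genes tested the shifts in the IP and in total RNA had a Spearman correlation of 0.675, over points that share both the replicate numbers and the scaling. Astrocyte and microglial markers moved with the replicate number, with all 5 of each list higher in replicate 1 of both fractions. The microglial markers P2ry12 and Tmem119 had no more than 6 counts in any library and were not tested. Among astrocyte markers, Gfap, a filament protein, had 725 CPM in IP replicate 1 and 121 in IP replicate 2, and 678 and 114 CPM in total RNA, while the glutamate transporter Slc1a2 differed less, with 1543 and 868 CPM in the IP and 1231 and 745 CPM in total RNA. The oligodendrocyte marker Mbp went the other way, with 35.6 and 44.3 CPM in the IP and 32.7 and 41.1 CPM in total RNA. Their part in the shifts of Syt4 and Syt2 was not tested. In bulk RNA, fewer cells of a type and less RNA per cell cannot be told apart.

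**Figure D2:**
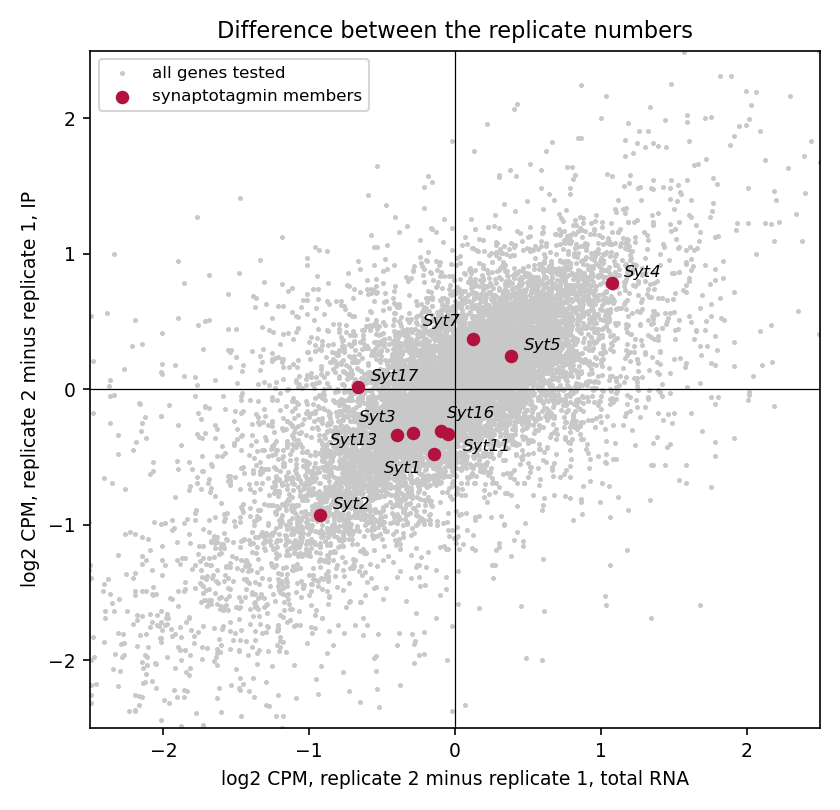
Difference in log2 CPM between replicates 2 and 1 in total RNA (horizontal) and in the IP (vertical), for all genes tested in grey within the axis limits and for the members in red. Syt4 lies at the upper right, at 1.08 and 0.78, and Syt2 at the lower left, at -0.92 and -0.93.

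Base composition and length of the members were set beside the IP ratio as a description. Over the 10 members the Spearman correlation of the log2 fold change was -0.395 with GC content, -0.358 with the length of the coding sequence, 0.0851 with exonic length and 0.0061 with the level per kilobase. With GC content it was -0.644 in pair 1 and -0.0851 in pair 2. All genes tested gave -0.315 with GC content and -0.171 with exonic length over 12328 genes of known composition. With GC content and length as an offset, the log2 fold change of Syt7 turned from -0.18 to 0.080 and that of Syt1 from 0.056 to -0.045, neither past the test in either fit. Under the same offset the lowest member was Syt13 at -0.15, in place of Syt3.

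**Figure D3:**
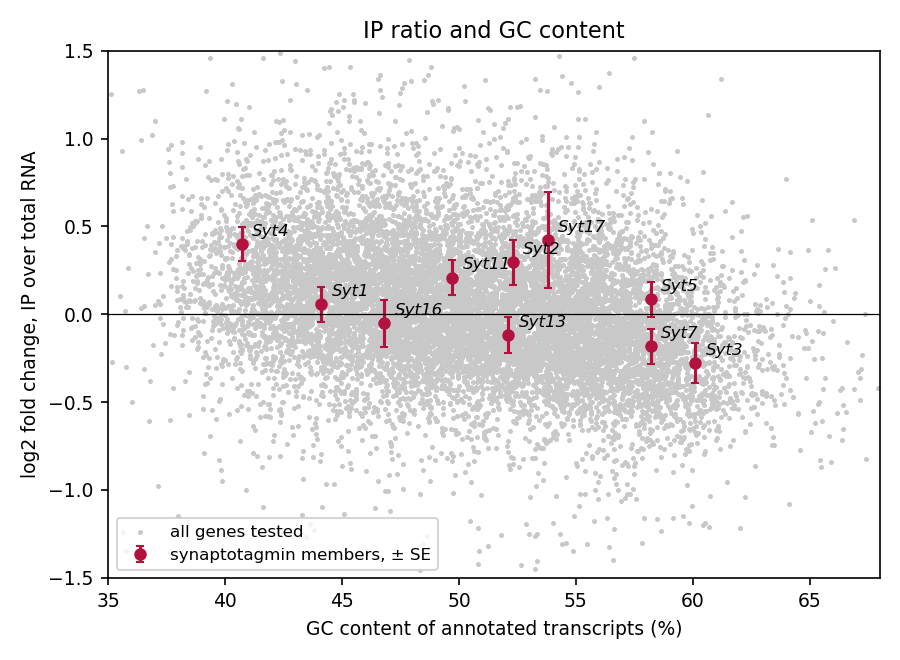
Log2 fold change of IP over total RNA against GC content in percent, for all genes tested in grey and the members in red. Syt4, at 40.7% GC, lies at 0.40, and Syt3, at 60.1% GC, lies at -0.28.

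Of the 7 other synaptotagmins, Syt12 had the highest level, 44.4 and 39.2 CPM in the IP and 45.2 and 43.4 CPM in total RNA, followed by Syt10 with 23.2 and 31.1 CPM in the IP and 24.5 and 33.2 CPM in total RNA. Syt8 had 0 counts in every library and Syt15 had 2, 0, 1 and 1 counts, too few to test. Of the 5 tested, 0 were called higher and 0 lower (edgeR with the block, with 1 at an unadjusted p under 0.05), and the median log2 fold change was -0.086. Syt6 had 11.8 and 11.5 CPM in the IP and 9.13 and 6.08 CPM in total RNA, and its log2 fold change of 0.64 ± 0.25 did not pass (edgeR quasi-likelihood test, adjusted p = 0.0709). Syt14 had a log2 fold change of 0.54 ± 0.29, Syt9 of -0.086 ± 0.37, Syt10 of -0.088 ± 0.15 and Syt12 of -0.088 ± 0.13, none past the test.

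Related C2 domain proteins (the synaptotagmin-like, Doc2, extended synaptotagmin and MCTP families and rabphilin) had 10 of 14 genes tested. Of these 0 were called in either direction by edgeR with the block, 0 had an unadjusted p under 0.05, and their median log2 fold change was -0.13. The 3 with the highest CPM were Rph3a at -0.11 ± 0.098, Esyt2 at -0.16 ± 0.14 and Mctp1 at -0.28 ± 0.17.

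The partners of synaptotagmins in fusion and retrieval were 19 genes, all of them tested. Of these, 8 were called higher and 2 lower, against 6.63% and 7.55% of all genes tested. The median log2 fold change of the partners was 0.25. Without the block 0 partners were called by edgeR, and 3 had an unadjusted p under 0.05, as did 349 of the 12336 genes tested. Among those called higher with the block were the SNARE genes Stx1a (0.60 ± 0.10), Snap25 (0.37 ± 0.099), Vamp1 (0.63 ± 0.12) and Vamp2 (0.27 ± 0.098), the complexins Cplx1 (0.41 ± 0.099) and Cplx2 (0.37 ± 0.10), which clamp and promote fusion, and Sv2a (0.54 ± 0.10), a vesicle protein that binds Syt1. Called lower were the priming factor Unc13a (-0.32 ± 0.10) and Ap2a1 (-0.40 ± 0.099), a subunit of the clathrin adaptor AP2. The other AP2 subunits and the other Unc13 gene among the partners were not called in either direction. Syt1, at 0.056, lay below the value of Sv2a and of each SNARE gene named here, and these differences between genes were not tested.

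The genes closest to Syt1 in log2 CPM over the 4 libraries were Slc8a2, a sodium-calcium exchanger, Gnao1, a G protein subunit, and Herc2, a ubiquitin ligase. Their Euclidean distances to Syt1 were 0.276, 0.304 and 0.359 in log2 CPM, a measure of like level as well as of like pattern. Slc8a2 had 853 and 552 CPM in the IP and 800 and 584 CPM in total RNA, so it was also lower in replicate 2 of both fractions.

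**Figure D4:**
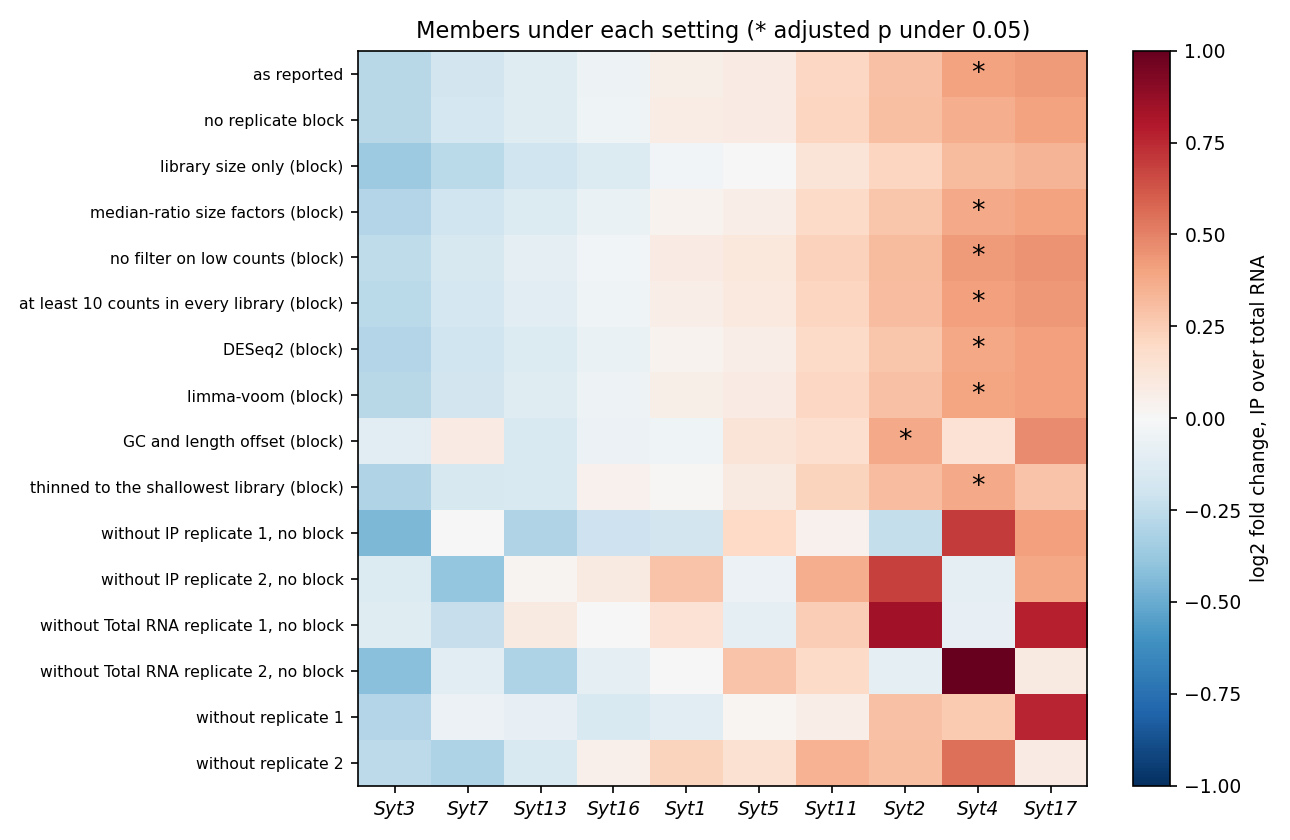
Log2 fold change of each member (columns) under each processing setting (rows), coloured from -1 to 1, with an asterisk where the adjusted p was under 0.05. Syt4 carries the asterisk in the fit as reported and in 6 of 8 alternatives with the replicate block, and Syt2 carries it in 1.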

How the data were processed

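The deposited files hold raw counts per gene from 2 RPS2 IP and 2 total RNA libraries. Per the file headers, the authors counted with featureCounts 1.5.3, stranded, against an mm10 annotation. They trimmed with cutadapt and aligned single-end reads with STAR. Reads at several loci or in several genes were not counted, and no removal of PCR duplicates was named. Totals ran from 4899718 to 16460545 counts.

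Symbols came from GENCODE M21 (31011 of 31053 identifiers matched). Counts were tested with edgeR 4.0.16 in R 4.3.3: filterByExpr, TMM, and the quasi-likelihood test of IP against total RNA with the replicate number as a block, two-sided, with Benjamini-Hochberg adjustment over 12336 genes and a threshold of 0.05. CPM uses the TMM-scaled library. Ratios within a pair carry a prior count of 2. SE is the log2 fold change divided by the square root of F, and 95% intervals rest on it. The pairing comes from the methods, which take total RNA from the samples before the pulldown. Deviations from the group means had a correlation of 0.733 between same-numbered libraries. The block leaves 1 residual degree of freedom, and the estimated prior degrees of freedom were infinite, so each gene shares the dispersion trend (a coefficient of variation of 7.93%, against 29.7% without the block). P-values measure the spread between these libraries alone. An exact permutation test of 2 against 2 cannot go below p = 0.333.

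The members, lists and the choice of the block were made with earlier results of these data known, among them that calls depend on the block. The rule named all 10 members, the other synaptotagmins, the called genes and the 3 of highest CPM in the related C2 and partner lists, and the 3 genes nearest to Syt1. Values of some single genes under this rule are left out here. Gm42418, Gfap, Mog, Cldn5 and the antisense neighbours were named after their values were seen. Aligned codons used 1 transcript a gene (APPRIS principal, then longest coding sequence), with Biopython 1.88 (BLOSUM62, gap open 11, extend 1) and the aspartates of Syt1 from general knowledge. GC content was known for 12328 tested genes. DESeq2 1.42.0, limma 3.58.1 (voom) and other scalings, filters and left-out libraries served as alternatives. The fits were tested on simulated data.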

Additional observations from a re-analysis of the deposited data

How the results depend on the processing

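Without the replicate block 0 genes were called higher and 0 lower, and 0 members. With the block, genes called higher and lower numbered 818 and 931 as reported, 283 and 878 with library size only, 158 and 382 with DESeq2 (which gave 4683 genes an adjusted p), and 470 and 382 with the GC and length offset. The share of higher calls was 46.8% as reported, 24.4% with library size only, 29.3% with DESeq2 and 55.2% with the offset. Members called higher numbered 0 with library size only and 1 in the other fits with the block, where the 1 was Syt2 under the offset and Syt4 elsewhere. Leaving out each library in turn, in the fit without the replicate block, gave 0 to 0 genes higher, 1 to 20 lower (3 with total RNA replicate 2 left out) and 0 to 0 members higher. The members' median log2 fold change ran from -0.092 to 0.12 over left-out libraries and pairs, and was -0.092 with IP replicate 1 left out and -0.047 with total RNA replicate 2 left out. Syt4 turned to -0.098 with IP replicate 2 left out and to -0.079 with total RNA replicate 1 left out. Members that were not called also had both signs over the left-out libraries: Syt1 ran from -0.18 to 0.28, Syt2 from -0.24 to 0.84, Syt5 from -0.099 to 0.28, Syt13 from -0.31 to 0.093 and Syt16 from -0.21 to 0.091. With a library left out and no block, replicate numbers are unequal between IP and total RNA, so replicate differences enter the fold change. How much of these shifts that covers was not tested. The median of all genes was -0.073 with library size only against 0.011 as reported. Depth limits Syt17 most, at 32 to 124 counts. No member was called lower under the alternatives run.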
